A study of Mus musculus with 27 samples.

Results

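The genes described here are 10 genes known for their expression in the placenta and in the decidua, the uterine lining of pregnancy, and they were followed in RNA sequencing libraries of whole fetal brain. They are 10 of the 55416 genes in the read count table: Prl3d1, Prl2c2, Prl3b1 and Hand1 as genes of trophoblast giant cells, Tpbpa, Tpbpb, Prl8a9 and Prl7b1 as genes of the spongiotrophoblast, and Prl8a2 and Gzmc as genes of the decidua. They were chosen by symbol as trophoblast and decidua transcripts found in these brain libraries, with their high counts in AKR/J on d12 already known. The contrasts of AKR/J d12 with AKR/J d15, C57BL/6J d12 and Cav1-null d12 are for that reason described for these genes with no test.

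The study followed fetal brain development in mouse strains of different life span: the inbred, leukemia-prone and short-lived AKR/J, the long-lived C57BL/6J, and the short-lived Cav1-null (B6.Cg-Cav1tm1Mls/J), a congenic strain in which the caveolin gene Cav1 is deleted in all tissues. From each strain 3 brains were sequenced at each of d12, d15 and d17 of gestation, with the plug counted as day 1, which gives 9 groups and 27 libraries. Every fetus was labelled female and its dam was about 8 weeks old. Brains were dissected whole from fetuses that had been rinsed and frozen, and polyadenylated RNA was sequenced. Nothing in the labels says whether the 3 fetuses of a group came from separate litters, so the spread between replicates may hold less than the spread between pregnancies.

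The mouse prolactin family has expanded into a cluster of genes on chromosome 13, most of which are hormones made by trophoblast or decidual cells and not by the pituitary. Trophoblast giant cells line the boundary with the uterus and secrete placental lactogens and proliferins, the spongiotrophoblast forms the layer beneath them, and decidual cells of the mother surround both. These messages are used as marks of their tissues and are not known as products of the neural tube.

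The libraries held between 26363697 and 39759702 reads assigned to genes, with a median of 29700746. Levels are given as CPM, reads of a gene scaled to a total of 1000000 reads on genes per library. The tissue label was checked against the 12 brain genes listed for this purpose, whose summed level on d12 lay between 3380 and 3810 CPM in AKR/J, between 4690 and 6430 CPM in C57BL/6J and between 5480 and 6500 CPM in Cav1-null. In AKR/J d12 replicate 3 Neurod2, a gene of cortical neurons, had 12 reads and Eomes, a gene of cortical progenitors, had 8 reads.

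Sequences upstream of 3 members are printed, those of Tpbpa and Tpbpb because the paralogues are alike there and differ in level, and that of Prl3d1 as a member outside that pair. They are the 250 bases before the annotated start, from the GRCm39 genome, 5′ to 3′ on the strand of the gene, and capitals mark matches to 3 motifs searched on both strands: a GATA motif (AGATAA, its variant TGATAA, and the forms AGATAG as well as TGATAG), an AP-1 motif (TGAGTCA or its variant TGACTCA) and an E-box (CATCTG, which reads as CAGATG on the other strand). Matches of different motifs were allowed to overlap.
Tpbpa upstream (chr13:61089799-61090048, - strand): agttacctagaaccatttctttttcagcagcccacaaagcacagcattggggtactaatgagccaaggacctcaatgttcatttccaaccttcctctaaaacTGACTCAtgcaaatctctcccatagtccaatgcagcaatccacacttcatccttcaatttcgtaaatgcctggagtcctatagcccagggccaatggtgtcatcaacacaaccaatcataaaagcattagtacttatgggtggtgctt
Tpbpb upstream (chr13:61052695-61052944, - strand): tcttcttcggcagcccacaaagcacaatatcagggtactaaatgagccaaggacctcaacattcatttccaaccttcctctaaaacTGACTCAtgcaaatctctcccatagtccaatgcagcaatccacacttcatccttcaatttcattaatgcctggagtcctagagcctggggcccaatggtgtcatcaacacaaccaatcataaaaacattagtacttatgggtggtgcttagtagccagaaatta
Prl3d1 upstream (chr13:27277923-27278172, + strand): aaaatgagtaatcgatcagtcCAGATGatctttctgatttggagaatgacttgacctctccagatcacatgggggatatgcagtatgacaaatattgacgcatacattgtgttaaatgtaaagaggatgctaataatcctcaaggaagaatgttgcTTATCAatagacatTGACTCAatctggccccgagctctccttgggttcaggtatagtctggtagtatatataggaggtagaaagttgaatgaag

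The windows of Tpbpa and Tpbpb aligned over 235 columns with 93.2% identity, and both held the AP-1 motif TGACTCA. The Prl3d1 window held 1 match of each kind. Over the window from 250 bases before to 50 bases after the start, and over the 9 members counted (Prl8a2 left out), a GATA motif was present in 4, an AP-1 motif in 4 and the E-box in 2. Of 21757 gene promoters 31.3% held a GATA motif, 4.92% an AP-1 motif and 16.5% the E-box. Members of 1 gene family share ancestry, so these matches are not separate events, and a match is only a run of letters.

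Reads on the 10 genes were concentrated in a few libraries. Of 28080 reads in all, AKR/J d12 replicate 1 held 74.6%, C57BL/6J d12 replicate 3 held 10.1%, AKR/J d12 replicate 2 held 8.8% and AKR/J d12 replicate 3 held 2.54%. The other 23 libraries together held 3.97%. In AKR/J d12 replicate 1 they made up 0.0586% of all reads on genes.

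**Figure D1:**
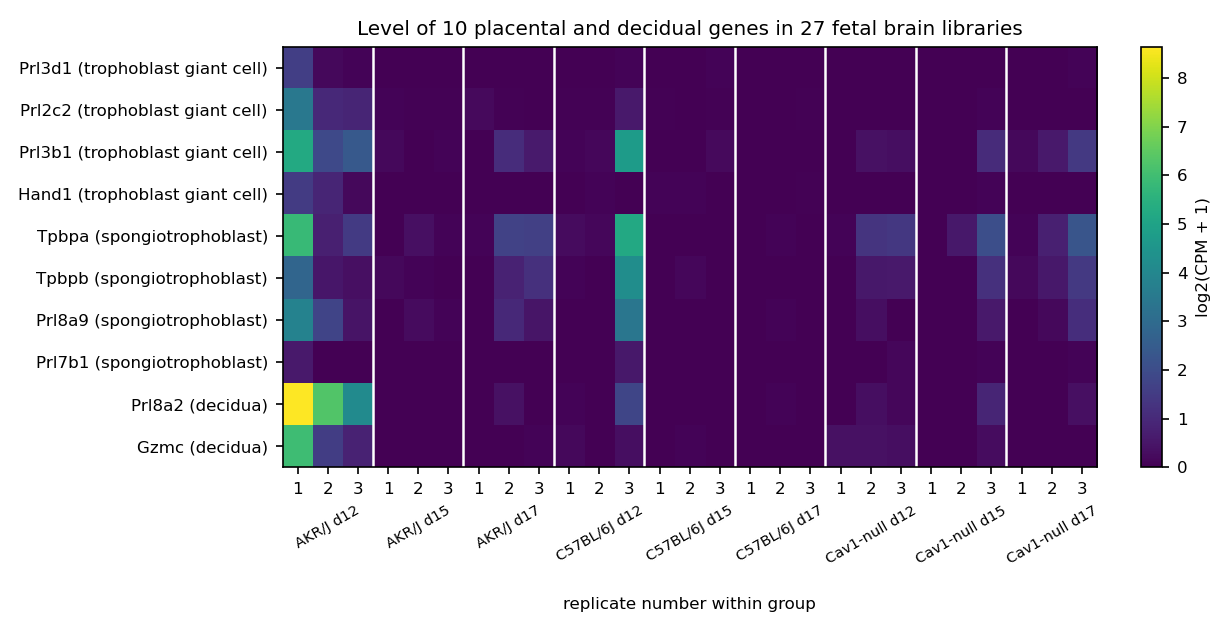
Level of each member (rows, with its tissue in brackets) in each of the 27 libraries (columns, by group and replicate number), coloured by log2(CPM + 1). The brightest column is AKR/J d12 replicate 1, followed by replicate 2 and 3 of the same group in the Prl8a2 row and by C57BL/6J d12 replicate 3 in the Prl3b1, Tpbpa, Tpbpb and Prl8a9 rows.

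Prl8a2 (ENSMUSG00000018259, chr13:27529645-27538199, plus strand), which encodes decidual prolactin-related protein, was the member with the most reads, 17015 over 27 libraries. Replicates 1, 2 and 3 of AKR/J d12 held 14232, 2182 and 469 of them, which is 398, 77.0 and 16.4 CPM. In C57BL/6J d12 it had 2, 0 and 76 reads, and in Cav1-null d12 it had 0, 8 and 4 reads. The lowest AKR/J d12 library, at 16.4 CPM, stood above the highest of the other 24 libraries, C57BL/6J d12 replicate 3 at 2.49 CPM. No read of Prl8a2 was found in the 3 AKR/J d15 libraries, where 3 counts over the group would set the pooled level of AKR/J d12 at least 5420-fold higher, or at least 1390-fold higher without replicate 1. On d17 in AKR/J it had 0, 8 and 0 reads. Its highest level outside d12 was 0.862 CPM, 24 reads in Cav1-null d15 replicate 3.

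Gzmc (ENSMUSG00000079186, chr14:56468857-56479211, minus strand) encodes granzyme C, a serine protease of killer lymphocytes that decidual tissue also expresses. It had 2172, 56 and 22 reads in AKR/J d12 (60.8, 1.98 and 0.769 CPM), so that 94.5% of its 2299 reads came from replicate 1. In C57BL/6J d12 it had 4, 0 and 8 reads and in Cav1-null d12 9, 10 and 8 reads. The AKR/J d12 libraries did not overlap either group, although replicate 3 exceeded the highest Cav1-null library only by 0.769 against 0.321 CPM. In AKR/J d15 no read was found, a level at least 723-fold lower at the floor of 3 counts over the group, or at least 40.8-fold lower without AKR/J d12 replicate 1.

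Gzmc belongs to a cluster of related granzyme genes. The first 90 coding bases of Gzmc and Gzmd are printed to show how far reads can be told apart, with capitals for the bases of Gzmd that differ.
Gzmc: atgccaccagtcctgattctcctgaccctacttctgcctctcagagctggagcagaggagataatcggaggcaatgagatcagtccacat
Gzmd: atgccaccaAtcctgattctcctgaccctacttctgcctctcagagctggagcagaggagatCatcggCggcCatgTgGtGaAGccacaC

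They differ at 10 of 90 bases, and over the whole transcript no 100-base window of Gzmc was shared exactly with another gene. Its neighbours were also highest in replicate 1: Gzmd had 3561, 102 and 32 reads, Gzmf 3445, 60 and 45 reads, and Gzmg 3975, 127 and 52 reads in AKR/J d12. In C57BL/6J d12 replicate 3 these 3 genes had 12, 6 and 22 reads. These values come from the libraries on which the members were chosen and are not independent of them. Gzmd was higher in AKR/J d12 than in Cav1-null d12 by 7.05 ± 1.76 (log2 difference ± SE, edgeR quasi-likelihood test, Benjamini-Hochberg adjusted p = 0.0257), and its groups did not overlap. Without AKR/J d12 replicate 1 the difference was 2.72 (adjusted p = 0.0338), and without any 1 of the 3 Cav1-null d12 libraries it was 6.75 to 7.5 with an adjusted p of 0.0819 to 0.0882. Gzmd, Gzmf, Hoxa10 and Prf1 are named after their values were seen.

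Hoxa10, a homeobox gene of the uterine stroma, had 514, 6 and 0 reads in AKR/J d12 and 0 reads in C57BL/6J d12 replicate 3. Prf1, which encodes the perforin of killer cells, had 267, 18 and 4 reads in AKR/J d12 and 2 in that C57BL/6J library. The list of decidual genes with granzymes as a whole overlapped between the strains. Its lowest, median and highest sums were 35.8, 55.3 and 472 CPM in AKR/J d12 and 33.1, 34.8 and 57.9 CPM in C57BL/6J d12. Among the 12 genes listed for uterine natural killer cells, 3 passed the low-count filter in the contrast of AKR/J with C57BL/6J on d12 and 0 were called, against 28.6% of all genes tested. The summed level of that list, which includes the brain gene Eomes, was 42.2, 34.5 and 5.66 CPM in AKR/J d12 and 76.4, 104 and 34.7 CPM in C57BL/6J d12. In AKR/J d12 replicate 1 all 12 of its genes had reads, against 8 and 7 in the other replicates. The part of killer cells or decidual cells in these values was not tested.

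Tpbpa (ENSMUSG00000033834, chr13:61086306-61089798, minus strand) and Tpbpb (ENSMUSG00000062705, chr13:61049002-61052694, minus strand) encode trophoblast-specific proteins of the spongiotrophoblast. Tpbpa had 2003, 20 and 50 reads in AKR/J d12 and 6, 4 and 1114 reads in C57BL/6J d12. In Cav1-null d12 it had 2, 49 and 56 reads. These groups overlapped, since 1 library in AKR/J (56.0 CPM) and 1 in C57BL/6J (36.5 CPM) stood far above the rest of d12.

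Tpbpb had those 2 libraries in the reverse order. It had 219, 12 and 8 reads in AKR/J d12 and 2, 0 and 545 reads in C57BL/6J d12, so that C57BL/6J d12 replicate 3 (17.9 CPM) was 2.91 times as high as AKR/J d12 replicate 1 (6.13 CPM). Per kilobase of exon, Tpbpa was at 26.3 and Tpbpb at 4.80 CPM in AKR/J d12 replicate 1, whereas the 2 genes were at 17.1 and 14.0 CPM in C57BL/6J d12 replicate 3. The paralogues shared no exact 100-base window, and their transcripts aligned with 93.0% identity over 456 bases when Tpbpa was the query and 88.2% over 764 bases when Tpbpb was.

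Prl8a9 (ENSMUSG00000006490, chr13:27741978-27748589, minus strand) and Prl7b1 (ENSMUSG00000021347, chr13:27785802-27794565, minus strand) are prolactin-like genes of the same layer. Prl8a9 had 475, 69 and 11 reads in AKR/J d12, 0, 0 and 290 in C57BL/6J d12 and 0, 8 and 0 in Cav1-null d12. Prl7b1 was the least abundant member, with 18, 0 and 0 reads in AKR/J d12, 0, 0 and 14 in C57BL/6J d12 and 0, 0 and 4 in Cav1-null d12. For both genes the 2 high libraries were close, with C57BL/6J d12 replicate 3 at 0.715 and 0.911 times the CPM of AKR/J d12 replicate 1.

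Prl3b1 (ENSMUSG00000038891, chr13:27425830-27433666, plus strand) encodes placental lactogen II, the later placental lactogen, which acts through the prolactin receptor. It had 1321, 77 and 122 reads in AKR/J d12 (37.0, 2.72 and 4.27 CPM) and 2, 4 and 780 reads in C57BL/6J d12. In Cav1-null d12 it had 0, 10 and 8 reads. AKR/J d12 lay above Cav1-null d12 throughout but overlapped C57BL/6J d12.

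Prl3d1 (ENSMUSG00000057170, chr13:27278173-27284241, plus strand) encodes placental lactogen I, the earlier lactogen of giant cells. Its reads were 72, 4 and 2 in AKR/J d12, and the other 24 libraries held 6 further reads, 2 of them in C57BL/6J d12 replicate 3 and 0 in Cav1-null d12. Of its 100-base windows 26.7% also occur in other genes, mainly Prl3d2, so its low counts carry an uncertainty of assignment.

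Hand1 (ENSMUSG00000037335, chr11:57719531-57723644, minus strand) encodes a basic helix-loop-helix factor required for giant cells and also expressed in heart and limb. It had 66, 24 and 4 reads in AKR/J d12 and 0 in C57BL/6J d12 replicate 3, where 3 reads would be 0.0983 CPM. C57BL/6J d12 replicate 2 had 2 reads, and Cav1-null d12 had 0 in all 3 libraries. Of the 9 members with reads in all 3 AKR/J d12 libraries, Hand1 was the one at 0 in that C57BL/6J library. Of its 100-base windows 18.4% also occur in Gm32915.

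**Figure D2:**
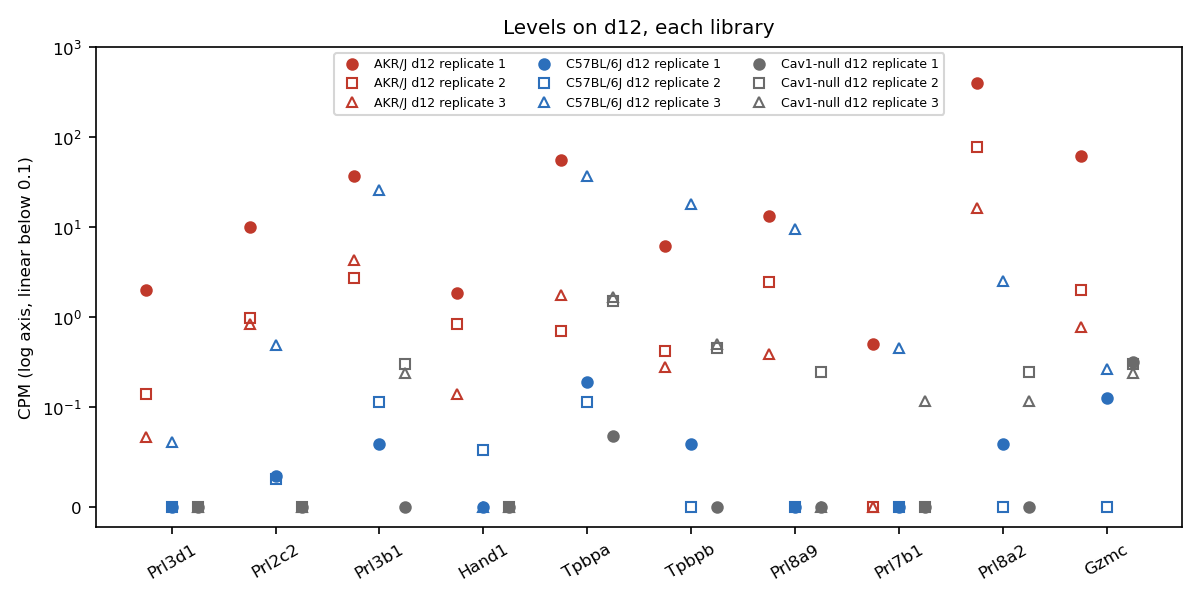
CPM of each member in the 9 libraries of d12 (log axis, linear below 0.1), 1 point per library, coloured by strain with the marker shape giving the replicate. AKR/J d12 replicate 1 is highest for 9 members, C57BL/6J d12 replicate 3 is highest for Tpbpb, and all 3 AKR/J libraries lie above the rest for Prl8a2, Gzmc, Prl2c2, Hand1 and Prl3d1, the last by library size alone, since the nearest AKR/J and C57BL/6J libraries have 2 reads each.

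Prl2c2 (ENSMUSG00000079092, chr13:13170710-13179968, minus strand) encodes a proliferin, a growth factor of giant cells that binds the mannose 6-phosphate receptor Igf2r. It had 360, 28 and 24 reads in AKR/J d12, 1, 1 and 15 in C57BL/6J d12 and 0 in all 3 Cav1-null d12 libraries. Its transcript is 99.5% identical to that of Prl2c3 and 66.4% of its 100-base windows occur in other genes, most of them in Prl2c3. The first 90 coding bases of both genes are printed to show this, with a capital where Prl2c3 differs.
Prl2c2: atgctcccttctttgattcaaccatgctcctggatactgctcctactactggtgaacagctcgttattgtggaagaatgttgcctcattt
Prl2c3: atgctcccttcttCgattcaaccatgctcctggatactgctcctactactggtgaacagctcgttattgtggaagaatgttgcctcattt

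Only 1 of these 90 bases differs. The split of reads between the 2 genes differed by strain. The 9 AKR/J libraries held 422 reads on Prl2c2 and 5 on Prl2c3, so that Prl2c2 took 98.8%. In the 9 C57BL/6J libraries there were 20 and 69 reads (22.5%), and in the 9 Cav1-null libraries 2 and 52 reads (3.7%). Most of these reads came from 2 libraries: AKR/J d12 replicate 1 had 360 and 0 reads, and C57BL/6J d12 replicate 3 had 15 and 64. The same split was seen at a few reads per library elsewhere, since 5 of the 6 AKR/J libraries of d15 and d17 had reads on Prl2c2 and none on Prl2c3, while 8 of the 9 Cav1-null libraries had reads on Prl2c3 and none on Prl2c2. The assembly is that of C57BL/6J, and whether sequence differences of AKR/J move reads between the 2 genes was not tested. The Prl2c2 counts of all 3 strains are for this reason uncertain as levels, and so are comparisons of AKR/J with the other strains on this gene. AKR/J d12 replicate 2 had 28 reads on Prl2c2 and 0 on Prl2c3, and replicate 3 had 24 and 3. Over both genes these libraries had fewer reads than C57BL/6J d12 replicate 3.

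**Figure D3:**
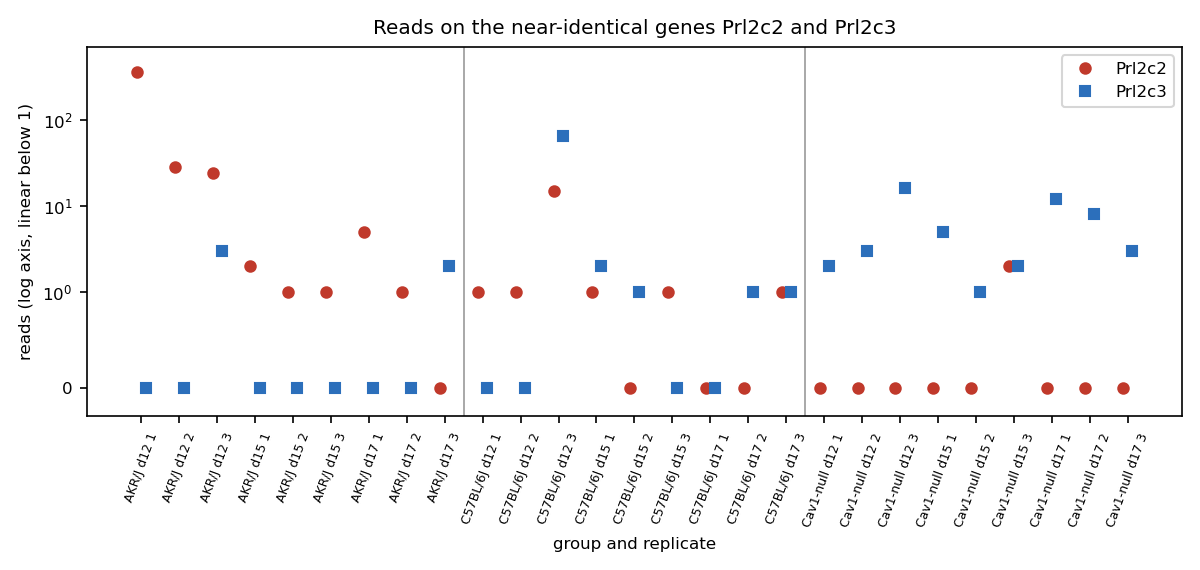
Reads on Prl2c2 (circles) and on its near-identical neighbour Prl2c3 (squares) in each of the 27 libraries (log axis, linear below 1), with lines between the strains. AKR/J libraries have reads mainly on Prl2c2 and Cav1-null libraries mainly on Prl2c3, and C57BL/6J d12 replicate 3 has 15 and 64 reads.

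Reads across splice junctions come from spliced RNA and not from genomic DNA. The junction table held 4 junctions inside members, in Tpbpa, Tpbpb and Prl2c2, and all 4 matched annotated introns with GT and AG at their ends. They carried 1507 reads. The joined sequence of 2 of them is printed, 20 exon bases on each side with the downstream exon in capitals, because these bases are adjacent only in spliced RNA.
Tpbpa junction (chr13:61088086-61088403, - strand): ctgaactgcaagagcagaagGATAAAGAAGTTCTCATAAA
Prl2c2 junction (chr13:13172053-13173165, - strand): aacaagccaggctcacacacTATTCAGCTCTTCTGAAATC

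The Tpbpa junction shown had 328, 5 and 8 reads in AKR/J d12 and 199 in C57BL/6J d12 replicate 3. The Tpbpb junction had 47, 9 and 2 reads in AKR/J d12 and 134 in C57BL/6J d12 replicate 3, which again is the higher of those 2 libraries. Across the Prl2c2 junction there were 179, 5 and 11 reads in AKR/J d12 and 7 in C57BL/6J d12 replicate 3. For Prl2c3 the corresponding junction had 0 reads in AKR/J d12 and 27 in C57BL/6J d12 replicate 3. For the other 7 members no junction was found in that table. It leaves out multi-mapped junctions, junctions with short overhangs and those under 10 reads in all samples, and why these members have none was not tested.

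The share of Prl8a2 in reads on Prl8a2 and Tpbpa was taken as a ratio of 1 decidual and 1 spongiotrophoblast gene, and it does not stand for the tissues. Prl8a2 took 87.7% (95% Wilson interval 87.1 to 88.2) of the reads on Prl8a2 and Tpbpa in AKR/J d12 replicate 1, 99.1% (98.6 to 99.4) in replicate 2 and 90.4% (87.5 to 92.6) in replicate 3. In C57BL/6J d12 replicate 3 it took 6.39% (5.13 to 7.92). The Tpbpa level of that library (36.5 CPM) was similar only to replicate 1 of AKR/J d12 (56.0 CPM). Both genes were chosen with their AKR/J d12 counts known, so these shares are a description. The other decidual member, Gzmc, did not keep the same ratio to Tpbpa, with 2172 against 2003, 56 against 20 and 22 against 50 reads in AKR/J d12 replicates 1, 2 and 3. The giant cell members Hand1, Prl3d1 and Prl2c2 were in C57BL/6J d12 replicate 3 at 0, 0.0325 and 0.0488 times their CPM in AKR/J d12 replicate 1, lower than Tpbpa at 0.651 times. The remaining giant cell member, Prl3b1, was at 0.691 times, above Tpbpa, so the giant cell members did not move together. The Prl2c2 ratio rests on counts that are uncertain. Among the 6 other libraries with at least 20 such reads the share ran from 0% in AKR/J d17 replicate 3 (0 of 60 reads) to 21.1% in Cav1-null d15 replicate 3 (14.6 to 29.4). These intervals cover counting error only, and they would be too narrow if both mates of a read pair had been counted. Of the 122 member values above 0, 94 (77.0%) were even numbers, against 58.7% of values of 1 to 9 and 50.2% of values of 100 or more over all genes.

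**Figure D4:**
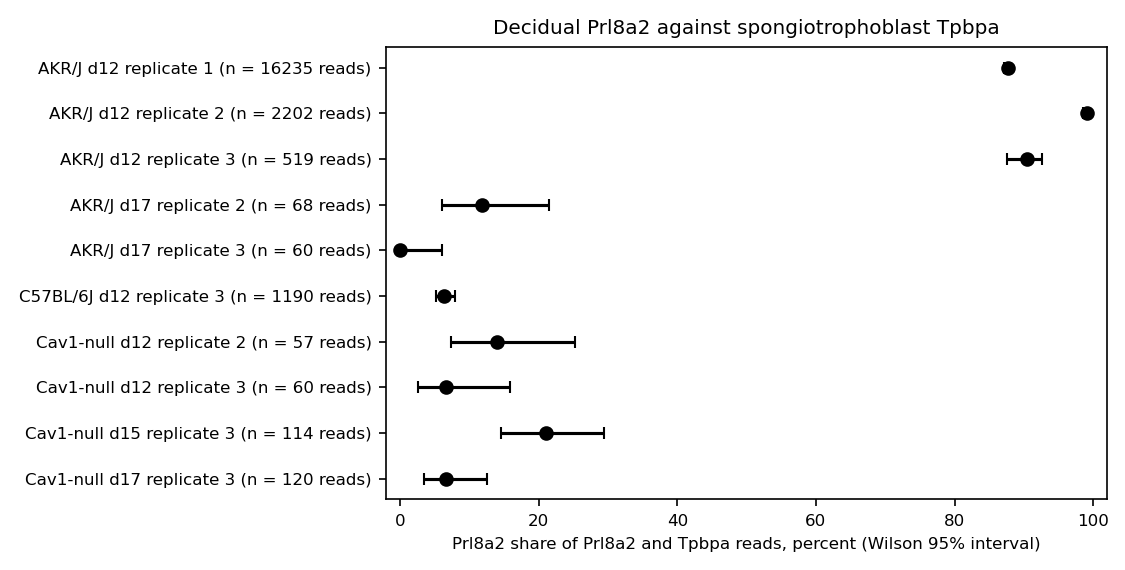
Share of Prl8a2 among the reads on Prl8a2 and Tpbpa (horizontal axis, percent) in each library with at least 20 such reads, with Wilson 95% intervals and the number of reads. The AKR/J d12 libraries lie between 87.7 and 99.1% and the others between 0 and 21.1%.

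Within the prolactin family as a whole, 25 of 26 genes in the table had reads. The family summed to 553, 92.4 and 27.0 CPM in AKR/J d12 and to 0.409, 0.200 and 74.0 CPM in C57BL/6J d12, and no other library exceeded 6.47 CPM. Prl8a2 led in AKR/J d12 with 72.1, 83.3 and 60.8% of the family reads. In C57BL/6J d12 replicate 3 Prl3b1 led with 34.5%, followed by Prl2b1 with 13.4% and Prl8a9 with 12.8%. Prl8a6 was at 0 reads in all AKR/J d12 libraries and at 98 reads in C57BL/6J d12 replicate 3, while in AKR/J d17 replicate 2 it led the family with 28.1%. Prl2c5 and Prl7a1, 2 family genes that are not members, had 921, 107 and 27 reads and 840, 46 and 44 reads in AKR/J d12, against 33 and 24 in C57BL/6J d12 replicate 3.

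**Figure D5:**
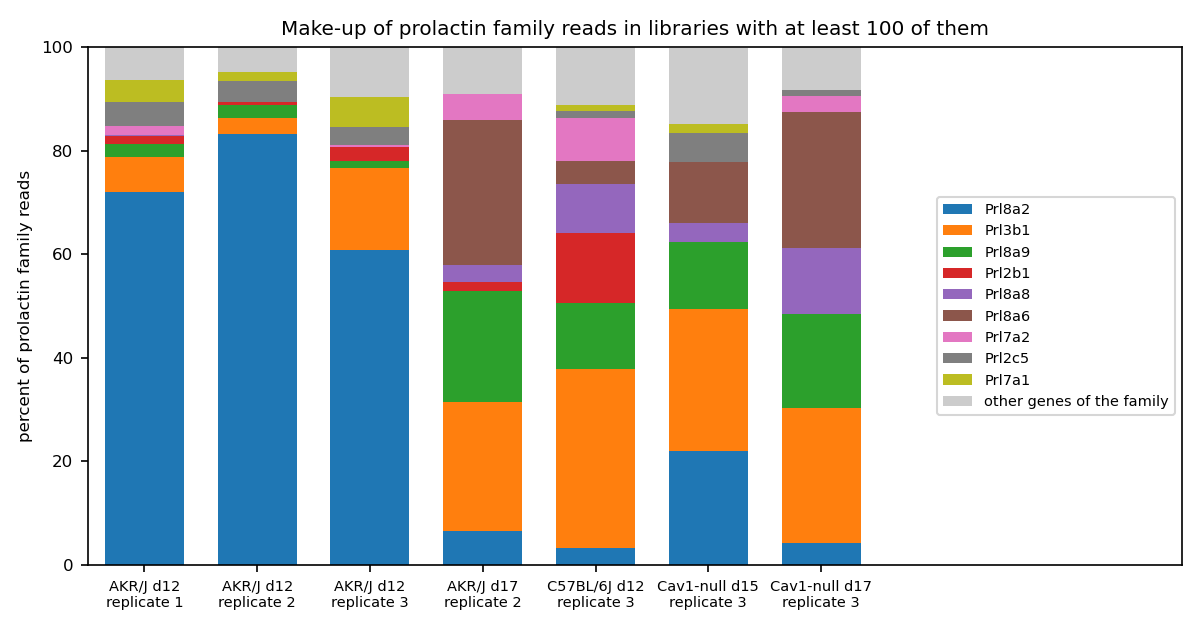
Percent of prolactin family reads taken by each gene (stacked, named genes in colour and the rest in grey) in the 7 libraries with at least 100 family reads. Prl8a2 makes up 60.8 to 83.3% in AKR/J d12 and 3.36 to 22.0% in the other 4 libraries, where Prl3b1, Prl8a9 and Prl8a6 take larger parts.

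Between d12 and d15 the levels in AKR/J brain libraries were lower for nearly all members. Of the 10 members, 9 were lower in all d15 libraries than in all d12 libraries, where 12% of all genes tested did not overlap in that direction and the contrast is one the members were chosen on. The exception was Prl7b1, at 0 in 2 of the 3 d12 libraries. Tpbpa was at 0.0693, 2.28 and 2.08 CPM on d17 against 0, 0.272 and 0.0663 CPM on d15, and these groups overlapped. In the AKR/J late phase (d15 to d17) 0 of 10 members passed the low-count filter, and 22.1% of all genes tested were called. Over the 10 members AKR/J d17 replicate 1 held 7 reads against 145 and 127 in replicates 2 and 3, and the d15 libraries held 10, 17 and 7. Where a library was left out, members entered the test only through the 2 high d17 libraries, so no call or direction is read from those fits.

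In C57BL/6J no member passed the filter in either phase. Tpbpa had 6, 4 and 1114 reads on d12 and 0 in all d15 libraries, so that these groups did not overlap, and 25.3% of all genes tested, which Tpbpa is not among, were lower on d15 without overlap. Prl2c2 had 1, 1 and 15 reads on d12 and 1, 0 and 1 on d15, where libraries with 1 read each differ in CPM by library size alone. On d17 the C57BL/6J libraries held 0, 6 and 2 reads on the 10 members together. The d12 reads of Tpbpa, Tpbpb, Prl3b1 and Prl8a9 lay nearly all in replicate 3.

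Spongiotrophoblast messages were found at a low level in some Cav1-null libraries of each day, and d15 replicate 1 held no member read. Tpbpa was at 1.07 ± 0.871 CPM on d12, 1.24 ± 1.74 on d15 and 1.54 ± 2.03 on d17 (mean ± SD, n = 3). On d15 the 3 libraries were at 0, 0.481 and 3.23 CPM, and on d17 at 0.0695, 0.702 and 3.86 CPM, so that replicate 3 set both means. Its log2 difference was 0.18 ± 1.22 from d12 to d15 (adjusted p = 0.93) and 0.30 ± 1.04 from d15 to d17 (adjusted p = 0.868). Tpbpb and, in the late phase, Prl3b1 were the other members that could be tested in Cav1-null, and 0 of 2 members were called in the early phase and 0 of 3 in the late phase, against 23.4% and 27.3% of all genes tested. Gzmc, at 0.321, 0.303 and 0.237 CPM on d12 and 0, 0 and 0.215 CPM on d15, did not overlap between these days, and 20.5% of all genes tested were likewise lower on d15 without overlap. Cav1-null d15 replicate 3 held 206 of the member reads of that day, and the other 2 libraries had 0 reads of Prl3b1 and of Tpbpb. Without it these genes enter the late-phase test only through d17, and no direction is read from that fit.

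Between Cav1-null and C57BL/6J on d12, Tpbpa and Tpbpb were tested and neither was called (log2 difference -3.53 ± 1.83, adjusted p = 0.295, and -4.21 ± 2.0, adjusted p = 0.259). Both signs rest on C57BL/6J d12 replicate 3, and without it the differences were 2.69 (adjusted p = 0.158) and 3.16 (adjusted p = 0.246). The edgeR test called 0% of all 19475 genes in this contrast, although 4309 genes had an unadjusted p under 0.05, and DESeq2 called 2044. Of the 2 members tested, 0 had an unadjusted p under 0.05, and DESeq2 gave an adjusted p for neither. Prl2c2, whose counts are uncertain, did not overlap between these groups (0 reads in all 3 Cav1-null d12 libraries), where 13.6% of all genes tested were lower in Cav1-null without overlap.

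On d12 the description by pooled reads set Prl8a2 in AKR/J at 227 times the level in C57BL/6J and 1440 times that in Cav1-null, and Gzmc at 197 and 85.2 times. For Tpbpa the same ratios were 1.94 and 19.8, for Prl3b1 2.03 and 86.3, and for Tpbpb 0.459 and 7.64. Without AKR/J d12 replicate 1 they were 58.1 and 368 for Prl8a2, 11.1 and 4.81 for Gzmc, 0.106 and 1.09 for Tpbpa, 0.433 and 18.4 for Prl3b1, and 0.0625 and 1.04 for Tpbpb. Without C57BL/6J d12 replicate 3 the ratio to C57BL/6J was 149 for Tpbpa, 183 for Prl3b1 and 405 for Gzmc, while Tpbpb stood at 2.58 against 0.0299 CPM and Prl8a2 at 182 against 0.0299 CPM, the lower level being 2 reads in each case. Of the 10 members, 5 lay above all C57BL/6J libraries, among them Prl3d1 by library size alone at 2 reads against 2 (13.8% of all genes tested were higher in AKR/J without overlap) and 7 lay above all Cav1-null libraries (10.1%). These contrasts share the AKR/J d12 libraries, and nothing is read from these counts, since the members were chosen on them. In each of these 2 contrasts 7 of the 10 members passed the low-count filter, and 6 did so between AKR/J d12 and d15.

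Other genes of the placenta and decidua were taken from 6 lists (the prolactin family, placental cathepsins, pregnancy-specific glycoproteins, genes of the spongiotrophoblast and placental surface, trophoblast regulators, and decidual genes with granzymes), of which 97 genes in the table were not members. Between AKR/J d12 and d15, 37 of them passed the filter and 14 were called, 2 higher and 12 lower on d15, where 28.9% of all genes tested were called. The 2 that rose were the trophoblast regulators Esrrb and Syna. The 12 that fell were 4 prolactin family genes (Prl2a1, Prl2b1, Prl2c5 and Prl7a1), the cathepsin Ctsj, the surface and homeobox genes Plac8, Rhox6 and Rhox9, and the granzymes Gzmb, Gzmd, Gzmf and Gzmg. Plac8 fell by 5.27 ± 1.11 on the log2 scale (adjusted p = 0.0106), from 24.6, 1.62 and 4.41 CPM to 0.471, 0.306 and 0.464 CPM. The median difference was -0.45 over the 37 genes and 0.02 over all genes tested. Scaling by library sizes alone, which moved the median of all genes from 0.02 to 0.46, gave 4 higher and 12 lower. Leaving out AKR/J d15 replicate 1 gave 8 calls and leaving out d15 replicate 3 gave 4, and without the latter Plac8 had an adjusted p of 0.0512. Of the 12 genes that fell, 9 had no read on d15 and passed the filter only through AKR/J d12, so their direction was fixed by the filter. These counts come from the same libraries as the choice of the members, and nothing is read from them.

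Against C57BL/6J on d12, 12 of 39 tested genes of these lists were called, 9 higher and 3 lower in AKR/J, with 28.6% of all genes called. Against Cav1-null, 13 of 37 were called, 12 higher and 1 lower, with 19.6% of all genes called. In these contrasts 1 called gene (Gzmb) had no read in C57BL/6J d12 and 3 (Prl2a1, Prl7a1 and Rhox9) had none in Cav1-null d12, so that they passed the filter only through AKR/J d12, and nothing is read from the counts. Nrk, a kinase gene of the spongiotrophoblast, was at 97.2, 13.7 and 11.2 CPM in AKR/J and 3.94, 5.34 and 8.81 CPM in C57BL/6J (log2 difference 3.37 ± 0.89, adjusted p = 0.0261). Without AKR/J d12 replicate 1 the difference of Nrk was 1.38 (adjusted p = 0.0597), and the number of list genes called was 1 of 40 against C57BL/6J and 7 of 37 against Cav1-null. The count against C57BL/6J was also 1 of 64 without C57BL/6J d12 replicate 1, 0 of 64 without replicate 2 and 19 of 46 without replicate 3. Against Cav1-null it was 4, 2 and 5 without replicates 1, 2 and 3 of Cav1-null d12, and 21 without AKR/J d12 replicate 2.

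The most abundant of the remaining list genes fell into those high in the libraries rich in members and those read in all brains. Prl7a2 was at 9.57, 0 and 0.140 CPM in AKR/J d12 and 0, 0 and 6.13 CPM in C57BL/6J d12. The cathepsin gene Cts3 was at 2.69, 0.0706 and 0.140 CPM and 0, 0 and 4.29 CPM in the same libraries. Ceacam11 was highest in C57BL/6J d12 replicate 3, at 12.8 CPM, against 0.783, 0.141 and 0 CPM in AKR/J d12. None of these 3 passed the low-count filter in a contrast with AKR/J d12. Pappa2, a protease gene of the placental surface list, was at 4.2, 6.39 and 3.43 CPM in AKR/J d12 and 11.1, 11.8 and 11.6 CPM in C57BL/6J d12 (log2 difference -0.90 ± 0.25, adjusted p = 0.0298), a call lost without any 1 of 4 libraries (0.0765 to 0.113). The cytokine receptor gene Il11ra1 was at 13.5, 14.9 and 9.79 CPM in AKR/J d12 and at up to 27.1 CPM in C57BL/6J d12, and these groups overlapped, while the integrin gene Itga2 was at 3.05, 5.61 and 3.36 CPM in AKR/J d12 and 6.80, 8.96 and 7.08 CPM in C57BL/6J d12 (-0.54 ± 0.29, adjusted p = 0.177).

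Between AKR/J d15 and d17, 7 of 24 list genes were called, 3 higher and 4 lower on d17 (22.1% of all genes). The 4 that fell were the trophoblast regulators Peg10, Gata2, Gata3 and Tfap2c, and Peg10, a retrotransposon-derived imprinted gene, fell by 1.16 ± 0.22 on the log2 scale (adjusted p = 0.00883), a call lost without d17 replicate 2 (adjusted p = 0.0599) or d17 replicate 3 (adjusted p = 0.052). Pgr, the progesterone receptor, rose from 5.99 ± 0.591 to 14.9 ± 1.85 CPM (mean ± SD, n = 3, log2 difference 1.36 ± 0.16, adjusted p = 0.00141). Pgr rose too between d15 and d17 in C57BL/6J (1.32 ± 0.18, adjusted p = 0.00837) and, in Cav1-null, between d12 and d15 (1.87 ± 0.30, adjusted p = 0.00309) and between d15 and d17 (0.65 ± 0.11, adjusted p = 0.000888). Between d12 and d15 its log2 difference was 1.48 ± 0.52 in AKR/J (adjusted p = 0.0653) and 1.43 ± 0.43 in C57BL/6J (adjusted p = 0.062). Psg16, a pregnancy-specific glycoprotein gene, rose in the late phase of all 3 strains, by 1.92 ± 0.28 in AKR/J (adjusted p = 0.00302), 1.15 ± 0.19 in C57BL/6J (adjusted p = 0.0135) and 0.62 ± 0.20 in Cav1-null (adjusted p = 0.0321). In the early phase it rose in Cav1-null by 2.52 ± 0.29 (adjusted p = 0.000839), and its difference was 1.13 ± 0.46 in AKR/J (adjusted p = 0.102) and 0.20 ± 0.80 in C57BL/6J (adjusted p = 0.883). The late call was lost in C57BL/6J without any 1 of the d15 libraries or d17 replicate 3 (adjusted p of 0.059 to 0.0694), and in Cav1-null without d15 replicate 1, d15 replicate 2 or d17 replicate 3 (0.0736 to 0.164). Pgr, whose call in C57BL/6J was lost without d17 replicate 3 (adjusted p = 0.058), is named after its values were seen. In C57BL/6J 3 of 22 genes were called between d12 and d15, all higher on d15 (14.9% of all genes). Between d15 and d17 there were 7 of 23, of which 3 rose and 4 fell (13% of all genes). In Cav1-null the early phase had 6 of 24 called, of which 2 rose and 4 fell (23.4%), and the late phase had 8 of 26, of which 5 rose and 3 fell (27.3%). In those 4 contrasts 0 of the 20 prolactin family genes outside the members passed the filter.

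The receptors of these hormones were measured in the same brains. Prlr, the prolactin receptor through which Prl3b1 and Prl3d1 act, was at 5.34, 0.706 and 0.699 CPM in AKR/J d12, and replicate 1 alone was high. It rose in the late phase of AKR/J from 3.30 ± 0.708 to 9.33 ± 1.36 CPM (log2 difference 1.54 ± 0.23, adjusted p = 0.00291), of C57BL/6J from 2.19 ± 0.155 to 8.87 ± 3.90 CPM (1.85 ± 0.30, adjusted p = 0.0118) and of Cav1-null from 4.79 ± 0.316 to 13.0 ± 1.57 CPM (1.44 ± 0.15, adjusted p = 1.49e-05). It rose as well in the early phase of C57BL/6J (1.25 ± 0.30, adjusted p = 0.0392) and of Cav1-null (1.91 ± 0.24, adjusted p = 0.00115), and its log2 difference between d12 and d15 in AKR/J was -0.09 ± 0.83 (adjusted p = 0.943). A difference between strains in this phase was not tested. In C57BL/6J the early call was lost without any 1 of 4 libraries (d12 replicate 1 or a d15 replicate, adjusted p of 0.0928 to 0.139) and the late call without any 1 of 4 (a d15 replicate or d17 replicate 3, 0.0505 to 0.0661). Igf2r, the receptor bound by proliferins, was at 40.5, 58.5 and 24.9 CPM in AKR/J d12 and fell in the late phase of AKR/J by 0.56 ± 0.14 on the log2 scale (adjusted p = 0.0262), a call lost without d17 replicate 2 (adjusted p = 0.122) or d17 replicate 3 (adjusted p = 0.108). In the same phase its difference was -1.12 ± 0.32 in C57BL/6J (adjusted p = 0.0593) and 0.01 ± 0.08 in Cav1-null (adjusted p = 0.932).

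Of the 12 genes listed for the signalling pathway of these receptors, 3 were called between d12 and d15 in AKR/J, all higher on d15, a share not above the 28.9% of all genes called: Socs2, a feedback inhibitor (1.23 ± 0.20, adjusted p = 0.00441), the kinase gene Jak2 (0.68 ± 0.13, adjusted p = 0.00799) and the adaptor gene Grb2 (0.78 ± 0.21, adjusted p = 0.0281). Socs2 is named after its values were seen, and the call on Grb2 was lost without AKR/J d12 replicate 1, d15 replicate 1 or d15 replicate 3 (adjusted p of 0.069 to 0.112). Against C57BL/6J on d12, 2 of the 12 were called, 1 higher (Ghr) and 1 lower (Grb2) in AKR/J, where 28.6% of all genes were called, and against Cav1-null 3 were called, all lower (Grb2, Jak2 and Socs2), where 19.6% of all genes were called. These genes were read in all brains and their summed level on d12 ran from 199 to 300 CPM in AKR/J and from 378 to 505 CPM in the other 2 strains.

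Markers of blood were high in all AKR/J libraries of d12, and Afp, a marker of yolk sac, was higher there than in the other strains. The 14 erythroid genes summed to 69200, 35900 and 136000 CPM in AKR/J d12 replicates 1, 2 and 3, to between 1900 and 5030 CPM in C57BL/6J d12 and to between 4690 and 5690 CPM in Cav1-null d12. All 14 had reads in each of these libraries. Hbb-y, an embryonic globin gene, was at 57100, 27900 and 114000 CPM and Hbb-bh1, another, at 5530, 1650 and 7900 CPM in AKR/J d12. Afp, the alpha-fetoprotein of yolk sac endoderm and fetal liver, was at 707, 144 and 10.9 CPM in AKR/J d12, while no d12 library of the other strains exceeded 1.73 CPM. Cav1-null d15 replicate 3 was the next over all days, at 5.82 CPM. The 18 yolk sac genes summed to 1340, 285 and 39.9 CPM in AKR/J d12, 254, 248 and 95.1 CPM in C57BL/6J d12 and 235, 180 and 712 CPM in Cav1-null d12. That list includes Ttr, a gene also of the choroid plexus of the brain, which made up most of the sum in the other 2 strains, at 238, 228 and 81.3 CPM in C57BL/6J d12 and 224, 169 and 692 CPM in Cav1-null d12, against 119, 43.6 and 9.89 CPM in AKR/J d12. Reads were found on 16 or 17 of the 18 in AKR/J d12, 10 or 11 in C57BL/6J d12 and 10 to 13 in Cav1-null d12. Against C57BL/6J on d12, 6 of 10 tested yolk sac genes were called, all higher in AKR/J, and 12 of 14 erythroid genes, 11 higher and 1 lower, with 28.6% of all genes called, in the libraries on which the members were chosen. Of the 18 yolk sac genes 7 had no read in C57BL/6J d12, so some tested genes may have passed the filter only through AKR/J d12. Nothing is read from the number or direction of the yolk sac calls. Afp followed the order of the members over the AKR/J replicates, whereas the erythroid sum was highest in replicate 3, which had the fewest member reads. C57BL/6J d12 replicate 3, rich in Tpbpa and Tpbpb, had Afp at 0.524 CPM. The part of yolk sac, blood, placenta or uterus in these values was not tested, and in libraries of whole tissue fewer cells of a type and less RNA per cell cannot be told apart.

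Genes outside the members whose level over the 27 libraries was most like theirs were found by the Pearson correlation of log2(CPM + 1) with the members' mean, among 24728 genes with at least 10 reads in at least 2 libraries. They were Psg18 (r = 0.956), Rhox9 (0.952), Prl2c5 (0.943), Rhox6 (0.942), Prl7a1 (0.934) and Sct, which encodes secretin (0.934). These correlations rest on the same few libraries. Sct, the only one in none of the lists, was at 12.3, 0.706 and 0.979 CPM in AKR/J d12 and 1.51 CPM in C57BL/6J d12 replicate 3, and at most 0.964 CPM elsewhere.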

How the data were processed

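Read counts per gene were used as deposited by the authors, who trimmed reads with cutadapt and fastp, mapped them to GRCm39 with STAR and analysed the counts with edgeR. The program that counted reads is not given in the sources used here. The deposited junction table holds counts of reads across splice sites (Ensembl 110 annotation, 2-pass STAR), from which multi-mapped junctions, those with short overhangs and junctions under 10 reads in all samples were left out. Even numbers were frequent among low counts, so both mates of a pair may have been counted. Strand was not given.

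CPM was computed from each library's total on genes (26363697 to 39759702 reads). Each pair of groups was tested on its own with edgeR 4.0.16 (R 4.3.3): filterByExpr, TMM scaling, the quasi-likelihood test and Benjamini-Hochberg adjusted p under 0.05 (called). Log2 differences use TMM scaling and so depart from ratios of CPM, since the TMM factor of AKR/J d12 replicate 1 was 0.678. Alternatives were DESeq2 1.42.0, RLE factors, library sizes alone, no filter, 1 model of all 27 libraries, a replicate block and leaving out each library. A fold against a group at 0 was set against 3 counts over that group. Replicate numbers were checked for pairing by the correlation of deviations from group means: 8 of 27 pairs were over 0.1, and all 3 pairs were so in AKR/J against C57BL/6J on d12 alone (0.12, 0.30 and 0.29), where a block changed the number of list genes called from 12 to 14. p-values measure the spread between these libraries.

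Gene positions, upstream sequences, transcripts and coding sequences came from the GRCm39 genome with GENCODE M39 annotation. Transcripts were compared with blastn 2.17.0+. The test script was checked on simulated counts. The members and lists were chosen with earlier results of these data known. Besides the 10 members, the genes named are the 4 other prolactin family genes and the 2 genes of each other list with the highest mean CPM on d12, Prlr, Igf2r, and the 6 genes most like the members, and all further genes (the granzymes other than Gzmg, Hoxa10, Prf1, Plac8, Pgr, Gata2, Gata3, Tfap2c, Socs2, Ghr, Neurod2, Prl2c3, Prl8a6, Prl2a1, Esrrb and Syna) were named after their values were seen. Of 198 listed genes 194 were matched by symbol. The other 3 lists (skeletal muscle, blood vessels, brain) had 1 of 7, 4 of 9 and 5 of 12 tested genes called for AKR/J against C57BL/6J on d12, where 28.6% of all genes were called. In AKR/J the muscle gene was higher, the 4 vessel genes were lower, and of the brain genes 1 was higher and 4 were lower. Their 2 most abundant genes on d12 ranged in AKR/J from 2.65 to 8.04 CPM (Mylpf, Tnnt1), 6.08 to 19.7 CPM (Kdr, Cldn5) and 221 to 610 CPM (Dcx, Map2), and over the C57BL/6J libraries from 1.26 to 4.32, 15.6 to 73.4 and 855 to 1340 CPM.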

Additional observations from a re-analysis of the deposited data

How the results depend on the processing

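Counts of called genes among the 97 other placental genes moved with the filter on low counts and with the libraries used. The counts of the reference analysis were 14 and 7 in the early and late phase of AKR/J, 3 and 7 in C57BL/6J, 6 and 8 in Cav1-null, 12 for AKR/J against C57BL/6J on d12, 13 for AKR/J against Cav1-null and 0 for Cav1-null against C57BL/6J. With no filter on low counts they became 40 and 17 in AKR/J, 6 in the early phase of C57BL/6J, 14 in the late phase of Cav1-null, 30, 37 and 2 in the 3 strain comparisons in that order, and members were called in the late phase of AKR/J (1, Tpbpa) and the early phase of C57BL/6J (2). In 1 model of all 27 libraries they became 27 in the early phase of AKR/J, 11 in the early phase of C57BL/6J with 4 members called, 3 and 1 in Cav1-null, and 24 and 25 for AKR/J against C57BL/6J and Cav1-null. DESeq2 gave 8 and 13 in C57BL/6J, 7 for AKR/J against C57BL/6J and 2 for Cav1-null against C57BL/6J. The cause of these shifts was not tested. Members entered these fits, and those without 1 library, through the libraries where they were high, so their calls are no evidence of a difference.

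With the replicate block C57BL/6J had 0 genes in the early phase and 11 afterwards, and there were 14 for AKR/J against C57BL/6J on d12, and no other count moved by over 1.5 times. By their labels, libraries with the same number shared only that number in every contrast, and the correlations for AKR/J against C57BL/6J on d12 do not establish a pairing.

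Leaving out 1 library at a time gave between 4 and 20 genes in the early phase of AKR/J (4 without d15 replicate 3, 8 without d15 replicate 1) and 2 to 11 in its late phase (2 without d17 replicate 2, 3 without d17 replicate 3, 11 without d15 replicate 2), with 0 to 3 members called. In C57BL/6J it gave 0 to 8 in the early phase (0 without any d15 replicate, 1 without d12 replicate 1 or 3, 8 without d12 replicate 2) and 1 to 12 in the late phase (3 without any d15 replicate, 12 without d17 replicate 1, 1 without d17 replicate 3). In Cav1-null the early phase gave 5 to 12 (12 without d12 replicate 3), and the late phase 0 to 2 members. AKR/J against C57BL/6J gave 0 to 19 and AKR/J against Cav1-null 2 to 21.

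Over 97 called differences of single genes, 915 recomputed values still passed the threshold with the same direction, 232 no longer passed and 0 changed sign. Depth limits most members outside 4 libraries, where the values rest on 0 to 112 reads.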
